A study of Homo sapiens with 62 samples.

Results

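The 10 genes described here are matrix metalloproteinases (MMPs) and their tissue inhibitors (TIMPs): MMP1, MMP2, MMP3, MMP7, MMP9, MMP10, MMP13, MMP14, TIMP1 and TIMP3. They were taken by gene name from the count files of 62 RNA-seq libraries, 10 of the 58735 genes listed for 4 of the cell lines and of the 48162 listed for A2780. The set was put together with a rise of MMP10 in A2780 cells that had lost an extra 1q arm already known. The A2780 values of all members are therefore given as a description, without a test, and tests were made in the other 4 lines. The study removed chromosome arm gains from human cell lines in single-cell-derived clones made by ReDACT methods, which the labels distinguish as NS, TR and CO. A2058, a melanoma line with gains of 1q, 7p and 8q, had 4 WT libraries, 4 libraries of 1q-loss (2 clones), 6 of 7p-loss (3 clones) and 4 of 8q-loss (2 clones), all by ReDACT-CO. HCT116, a colorectal cancer line with a gain of 8q, had 2 WT libraries and 4 of 8q-loss (2 clones, ReDACT-CO). AGS, a gastric cancer line with a gain of 1q, had 1 WT library, 2 TK+ libraries (a TK+ integrant with the gain kept, clones 1 and 2) and 1 library each of 1q-loss clones 1, 4, 6 and 7 (ReDACT-NS) and clone 11 (ReDACT-CO). A2780, an ovarian cancer line with a gain of 1q, had 2 WT libraries, 2 TK+ libraries and 6 of 1q-loss (clones 2, 5 and 6, ReDACT-NS). MCF10A, a breast epithelial line with an extra copy of 1q, had 2 WT libraries and 8 of 1q-loss (clones 1, 2 and 3 by ReDACT-TR, clone 4 by ReDACT-CO), and the same set of groups again in cells that also expressed hRASV12, a RAS oncoprotein. All cells were grown for 24 hours after plating, and mRNA was selected by poly-T beads.

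MMPs are zinc-dependent proteases that cut collagens, laminins, proteoglycans and other matrix proteins, and that release growth factors and receptors from cell surfaces. MMP1 and MMP13 are collagenases that cleave fibrillar collagen, MMP2 and MMP9 are gelatinases, MMP3 and MMP10 are the closely related stromelysins, MMP7 is matrilysin, the smallest of them, and MMP14 is a membrane-bound enzyme that activates proMMP2. Most are made as inactive proenzymes and are held in check by TIMPs, of which TIMP1 is a secreted inhibitor and TIMP3 binds to the matrix. Several MMP genes, MMP1, MMP3 and MMP10 among them, are known targets of the transcription factor AP-1, which acts downstream of RAS and MAP kinase signalling and binds the sequence TGANTCA.

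No member lies on 1q, 7p or 8q. MMP7, MMP10, MMP1, MMP3 and MMP13 lie in this order in 1 cluster on 11q22, all on the minus strand. On GRCh38 they run from MMP7 at chr11:102520508-102530753 through MMP10 at chr11:102770503-102780628, MMP1 at chr11:102789920-102798160 and MMP3 at chr11:102835801-102843803 to MMP13 at chr11:102942995-102955734. The others are MMP2 at chr16:55389700-55506691, MMP9 at chr20:46008908-46016561, MMP14 at chr14:22836557-22849027, TIMP1 at chrX:47582313-47586789 and TIMP3 at chr22:32801701-32863043, all on the plus strand. The A2780 files give GRCh37 positions, where MMP10 is at chr11:102641234-102651359. MMP1, MMP3 and MMP10 overlap WTAPP1 on the opposite strand, TIMP1 overlaps SYN1 and TIMP3 overlaps SYN3, and whether counting used the strand is not given in the sources used here. MMP10 and MMP3 transcripts share 22 of the 1732 windows of 75 bases in MMP10 (1.27%), and no other pair of members shares one, so reads could be split between these 2 genes only over a short stretch.

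RefSeq promoters (GRCh38.p14) were matched for 5 of the 10 members, MMP7, MMP10, MMP14, TIMP1 and TIMP3. MMP7 and MMP10 are printed because they are the 2 of the 5 that hold both the AP-1 letters TGANTCA and the TATA box letters TATAAA, and because their expression differed widely in these cells. Each stretch is the 110 bases before the transcript start on the minus strand of chromosome 11, from chr11:102530748-102530857 for MMP7 and chr11:102780629-102780738 for MMP10. Capitals mark the motif matches.
MMP7: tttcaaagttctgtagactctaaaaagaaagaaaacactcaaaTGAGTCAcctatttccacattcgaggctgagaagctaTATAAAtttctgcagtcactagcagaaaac
MMP10: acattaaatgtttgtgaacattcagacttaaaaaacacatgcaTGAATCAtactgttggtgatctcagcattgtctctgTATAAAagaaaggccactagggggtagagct
The TGANTCA match begins 67 bases before the start in both genes, and the TATAAA match 30 bases before it in MMP7 and 31 in MMP10. Of 35116 RefSeq promoters, searched on both strands over 250 bases before the start, 6.57% held TGANTCA, 10.7% held TATAAA and 1.07% held both; the 2 motifs share no bases in the stretches printed. A match describes the letters in this window and says nothing of binding.

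Total counts ranged from 19595543 to 28622197 in A2058, from 21373588 to 30984036 in HCT116, from 15042068 to 19414614 in AGS, from 19358338 to 23965475 in A2780 and from 15500424 to 29312644 in MCF10A. The median shift of genes on the targeted arm against other autosomes was below that of every control library in all loss libraries, with group means from −0.42 to −0.60 (log2). Levels are counts-per-million (CPM) values scaled within each line by the trimmed mean of M-values (TMM), so levels from different lines sit on separately made scales. HRAS stood at 85.9 to 87.9 CPM in MCF10A WT, 77.4 to 100.1 in 1q-loss, 173 to 177 in hRas WT and 154 to 409 in hRas 1q-loss (median 195). Calls are adjusted p-values under 0.05 from edgeR's quasi-likelihood test, adjusted over all genes tested in a comparison. The 2 libraries of a clone come from 1 clone and are not independent of each other as clones are, and outside MCF10A the labels do not say whether replicates are separate cultures, so p-values measure the spread between these libraries. In bulk RNA, fewer cells expressing a gene and less RNA per cell cannot be told apart.

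Each line expressed its own subset of the members. Members at a mean of 1 CPM or more numbered 6 in A2058 WT, 6 in A2780 WT, 4 in MCF10A WT, 3 in AGS WT and 2 in HCT116 WT. TIMP1 was the inhibitor all 5 lines expressed, at 68.3 ± 4.30 CPM per kilobase of gene model in A2058 WT (SD, n = 4), 74.3 ± 1.79 in A2780 WT (n = 2), 143 in AGS WT (n = 1), 212 ± 88.6 in HCT116 WT (n = 2) and 309 ± 55.9 in MCF10A WT (n = 2). The ranges of A2058 and A2780 lie close together, and the spread in HCT116 is wide enough to reach the AGS value.

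Collagenase MMP1 led the set in A2058 WT, at 307 ± 121 CPM per kilobase (SD, n = 4), ahead of MMP14 at 145 ± 20.2, TIMP3 at 108 ± 20.6, TIMP1 at 68.3 ± 4.30, MMP2 at 23.6 ± 1.95 and MMP9 at 3.72 ± 3.72. MMP14 and TIMP3, neighbours in that order, are separated by less than the sum of their SDs. In A2780 WT, MMP10 followed TIMP1 with 25.4 ± 0.0218 CPM per kilobase (SD, n = 2), then MMP3 with 2.63 ± 1.15 and MMP1 with 0.904 ± 0.182. MMP14 was high in AGS WT (109, n = 1), intermediate in MCF10A WT (29.2 ± 5.27, n = 2) and lower in HCT116 WT (7.52 ± 1.33, n = 2). TIMP3 reached 23.4 ± 0.666 in MCF10A WT and had no counts in any of the 6 HCT116 libraries, where 3 counts would have been 0.0987 to 0.127 CPM. MMP7 never reached 1 CPM. Its highest value was 0.839 CPM, from 18 counts, in MCF10A 1q-loss clone 4 replicate 1, so the MMP7 promoter printed above belongs to a gene that was nearly silent here while MMP10 ranged up to 521 CPM.

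**Figure D1:**
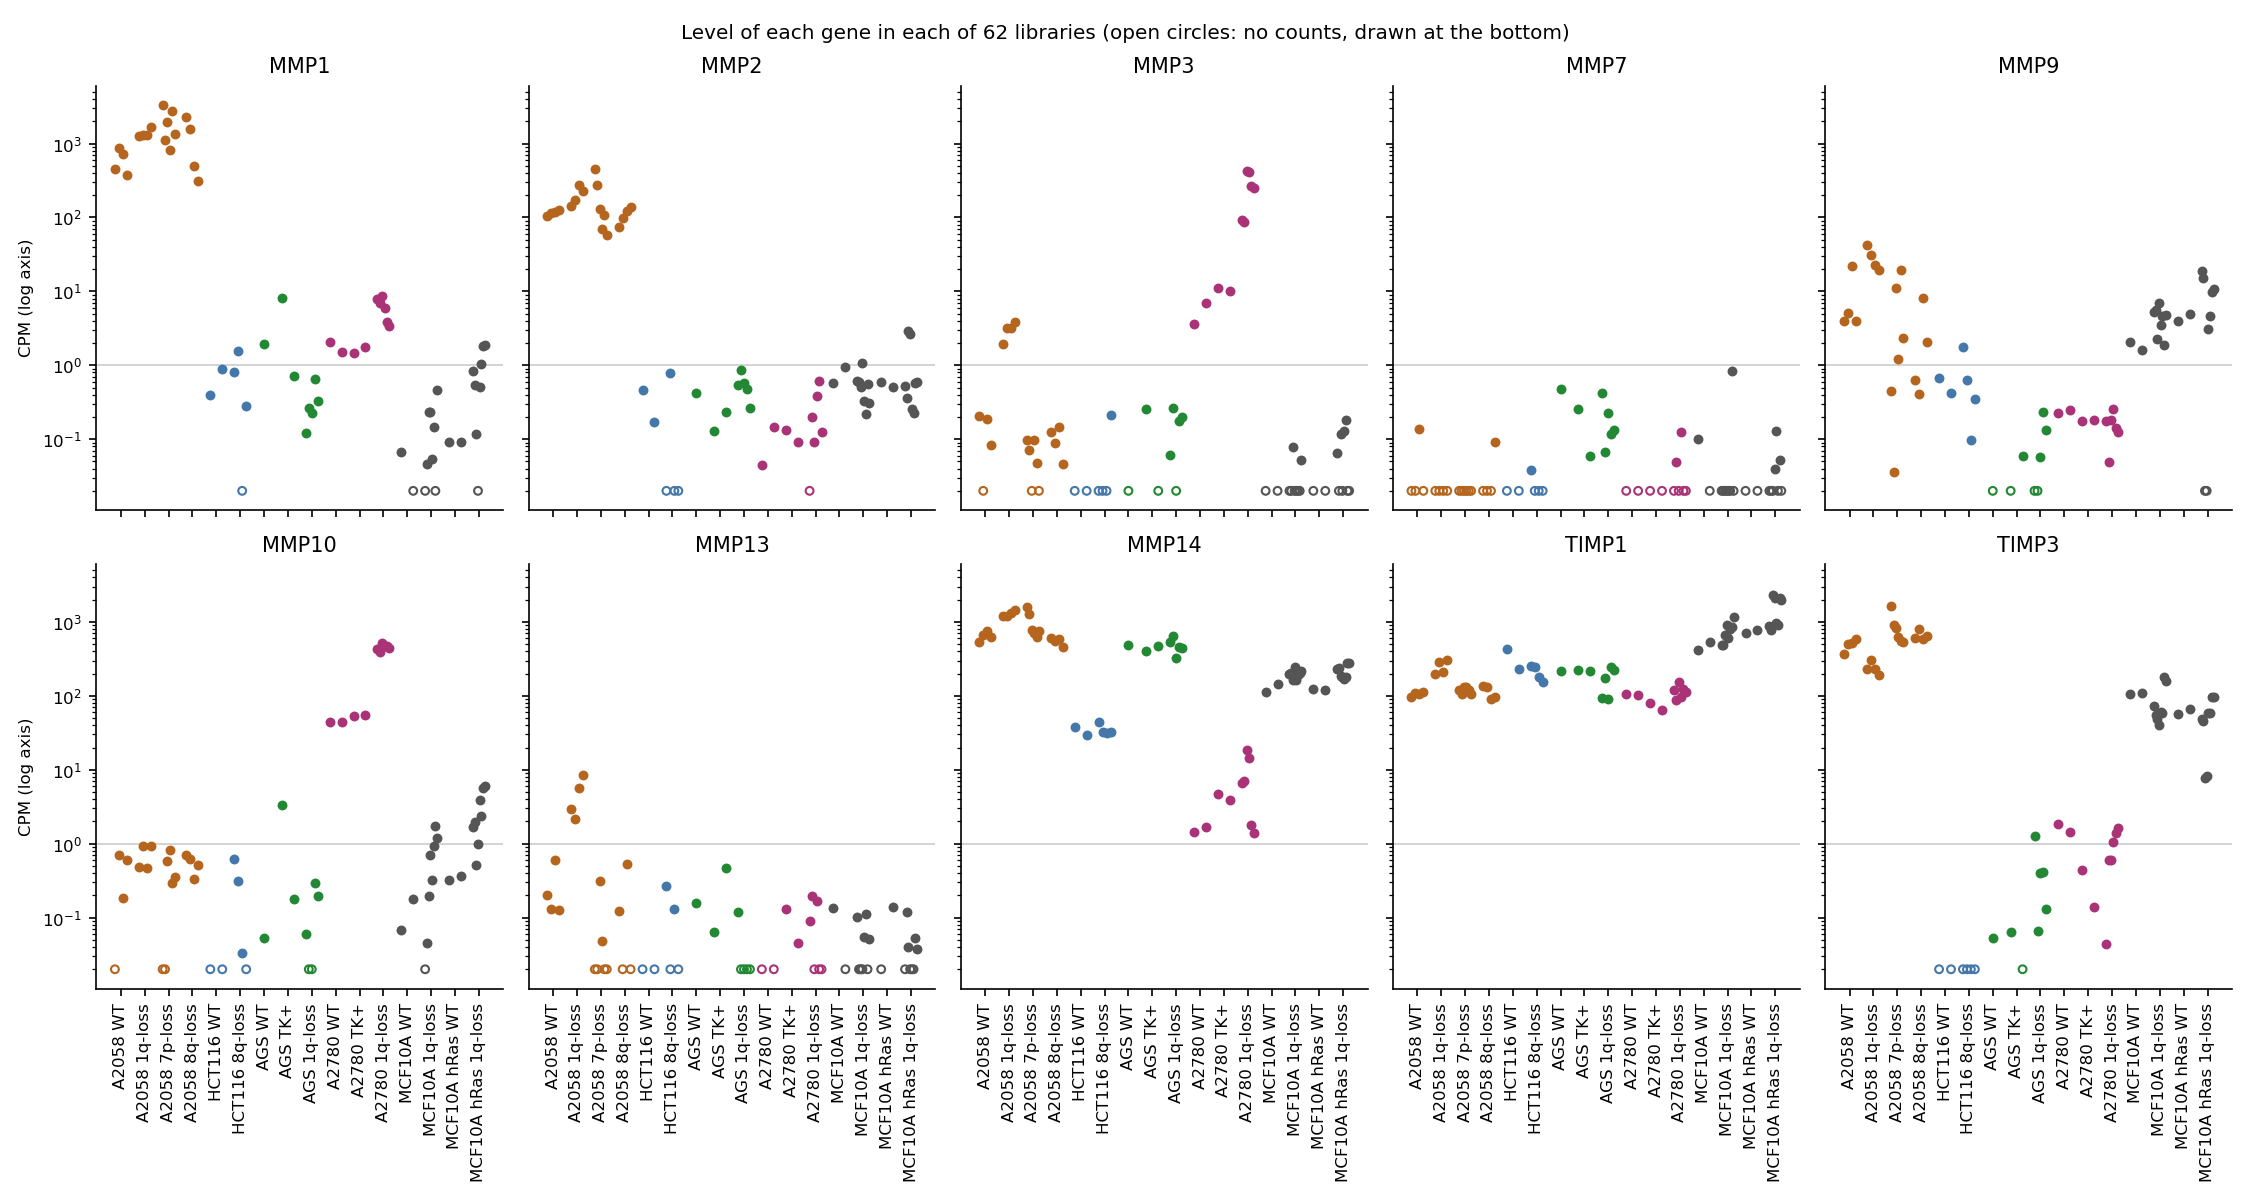
CPM of each of the 10 members (log axis) in all 62 libraries, 1 point per library, by group and coloured by line; open circles at the bottom are libraries with no counts, and the grey line marks 1 CPM. MMP1 is highest in A2058, MMP10 and MMP3 in A2780 1q-loss, TIMP1 lies above 1 CPM in every library and MMP7 below it in every library.

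In A2780, MMP10 and MMP3, the 2 stromelysins, had the largest differences of the set between 1q-loss clones and the libraries that kept the gain. MMP10 stood at 44.7 and 44.8 CPM in the WT libraries and at 53.5 and 54.9 in TK+. In 1q-loss it stood at 435 and 391 CPM in clone 2, 521 and 469 in clone 5, and 466 and 445 in clone 6. Every 1q-loss library lay far above every control library, and the 3 clones lay close together. Counts behind these values were 908 to 1215 in the controls and 7920 to 11402 in 1q-loss. The fitted difference against the 4 control libraries was 3.20 (log2), or 9.18-fold, and the clones gave 3.06, 3.33 and 3.19 in the order 2, 5, 6.

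MMP3, which cleaves proteoglycans and activates other proMMPs, had the larger ratio from a lower start. It stood at 3.66 and 6.95 CPM in WT and at 11.1 and 9.99 in TK+. In 1q-loss it reached 91.1 and 86.8 CPM in clone 2, 422 and 412 in clone 5, and 265 and 248 in clone 6. Clones differed more for MMP3 than for MMP10: replicates of a clone stayed close together, while clone 5 stood at 417 CPM on average against 89.0 in clone 2. The fitted difference was 32.1-fold. On the scale per length, 1q-loss put MMP10 at 259 CPM per kilobase, above MMP3 at 126 and TIMP1 at 81.7.

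MMP1, the neighbour of both genes on 11q22, was low throughout. It stood at 2.03 and 1.53 CPM in WT and 1.45 and 1.79 in TK+, and in 1q-loss at 7.88 and 6.97 in clone 2, 8.55 and 5.92 in clone 5 and 3.87 and 3.39 in clone 6, a fitted difference of 1.84 (log2). Here too the 1q-loss libraries did not overlap the controls. MMP10, MMP3 and MMP1 are the 3 of the 6 members above the filter on low counts that pass the calling threshold, all 3 upwards, where 11.8% of 15044 genes do and 5.95% do so upwards. They are also the 3 whose 1q-loss libraries all lay above the controls, as did 6.43% of genes. The rule that chose the members used this contrast, so nothing is read from these counts.

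MMP14, TIMP1 and TIMP3 in A2780 1q-loss overlapped the pooled controls. For all 3 the TK+ libraries lay apart from WT, as they also did for MMP10 and MMP3. With 2 libraries in each group, nothing is read from this. MMP14 stood at 1.45 and 1.68 CPM in WT and 4.63 and 3.94 in TK+, against 6.63 and 7.01 in clone 2, 18.7 and 14.4 in clone 5 and 1.77 and 1.40 in clone 6, so 2 clones lay above all controls and clone 6 lay with WT. TIMP1 stood at 107 and 103 CPM in WT, 78.8 and 63.5 in TK+ and 88.0 to 154 in 1q-loss. TIMP3 lay between 0.0445 and 1.85 CPM in all 10 libraries. MMP2, MMP7, MMP9 and MMP13 had at most 13 counts in any A2780 library.

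**Figure D2:**
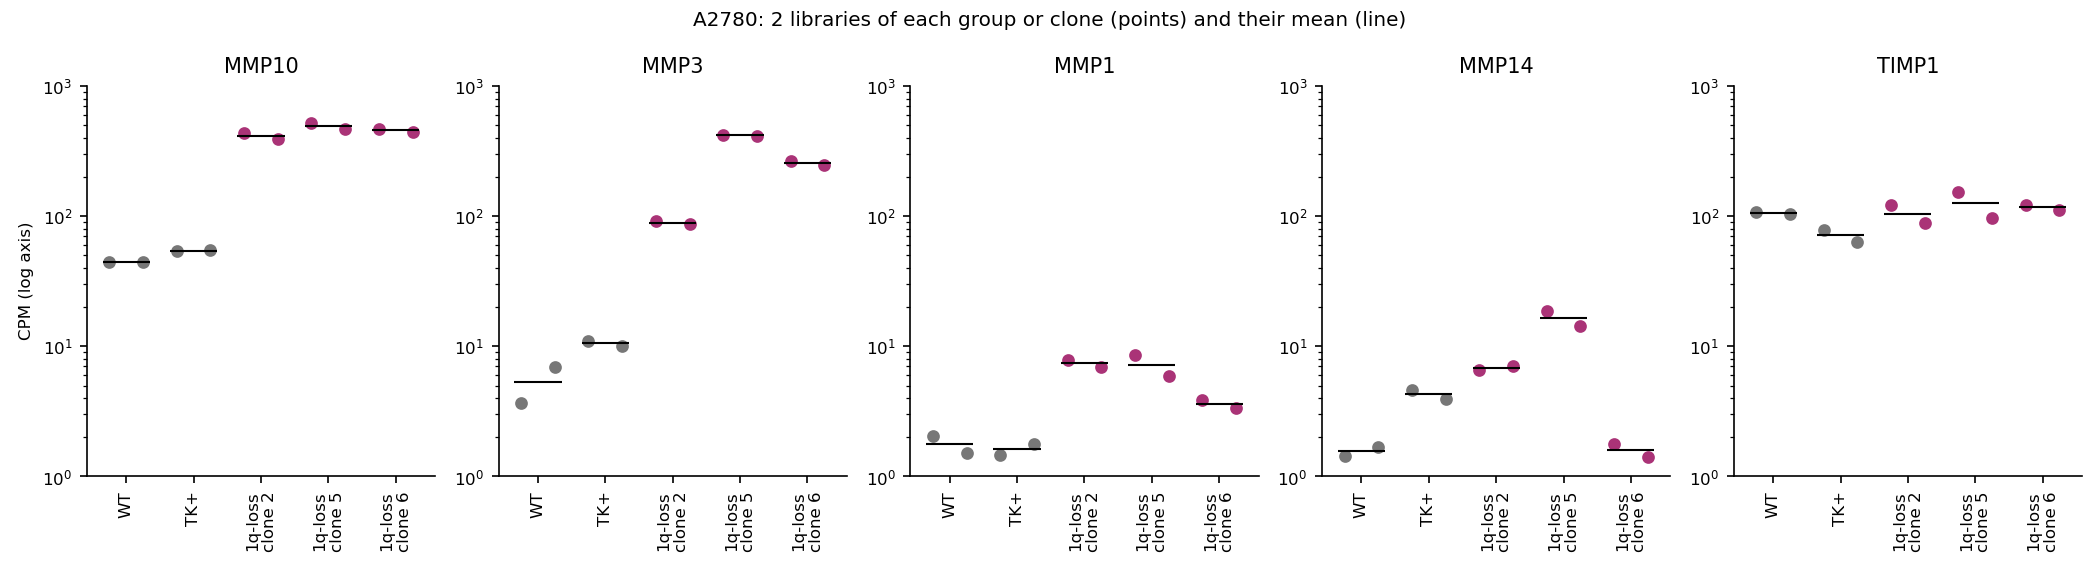
CPM of 5 members in the 10 A2780 libraries (log axes), 1 point per library with a line at the mean of each pair, for WT, TK+ and 1q-loss clones 2, 5 and 6. MMP10, MMP3 and MMP1 lie higher in all 6 libraries of 1q-loss, and MMP14 in clones 2 and 5.

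The TK+ libraries were also set against the 2 WT libraries, both of which are among the controls above. The log2 differences of TK+ from WT were 1.00 for MMP3, 1.46 for MMP14, 0.28 for MMP10, −0.14 for MMP1, −0.56 for TIMP1 and −2.47 for TIMP3. At the calling threshold, 4 of these 6 members and 11.2% of 14888 genes pass, and nothing is read from it for the same reason. The median difference of the 6 members in 1q-loss was 1.67 (log2) against WT and TK+ together, 2.09 against WT only and 1.75 against TK+ only. Without clone 5 it was 1.11.

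Several measurements stood beside the A2780 values. WTAPP1, which overlaps MMP1, MMP3 and MMP10, had 1 to 3 counts in WT, 9 in both TK+ libraries and 8 to 47 in 1q-loss (0.395 to 1.99 CPM), far below MMP10. The median shift of 11q genes in the 1q-loss libraries ran from −0.042 to 0.028 (log2). Of the ovarian and Mullerian markers, only KRT8 and KRT18 reached 1 CPM in WT, and WT1, MUC16 and WFDC2 had no counts there. The fibroblast markers summed to 2861 to 2974 CPM in WT (7 of 7 at 1 CPM or more), 1951 to 2186 in TK+ (6 of 7) and 2826 to 4699 in 1q-loss (7 of 7). The gastric and keratin markers summed to 172 to 181 CPM in WT, 5.99 to 8.57 in TK+ and 7.89 to 85.0 in 1q-loss, and the part of these markers in the MMP values was not tested.

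Other genes of the pathway in A2780 1q-loss are likewise given as a description. Their counts stand beside the 11.8% of 15044 genes that pass the threshold there and the 5.95% that pass it upwards. The rule that chose the members used this contrast, so nothing is read from them. Of 9 other MMP genes above the filter, 3 pass the threshold upwards: MMP12, the macrophage elastase, at 0.0932 CPM in controls and 1.28 in 1q-loss, MMP25 (1.39 log2) and MMP15 (0.67 log2). At that control level MMP12 met the filter on low counts only through 1q-loss, where it was high. Of 6 genes of plasminogen activation, 3 pass upwards. Of 11 AP-1 and ETS factor genes, 7 pass upwards and none downwards, with the AP-1 subunit gene FOSL1 at 2.08 ± 0.750 CPM in controls and 15.2 ± 2.19 in 1q-loss. TIMP2 was higher by 0.51 (log2), and of the 6 genes next to the MMP cluster on 11q22, BIRC2 was higher by 0.80. Among ADAM proteases, ADAM9 was higher by 0.42 and ADAM15 fell by 0.51. Against WT, TK+ had COL1A2 lower (fell by 5.07), MMP16 lower (fell by 2.03), ADAM19 lower (fell by 1.39), FOSL2 lower (fell by 0.46), MMP17 higher by 0.84 and MMP15 higher by 0.51, all log2.

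A2058 melanoma cells that had lost the 1q gain differed from WT in most of the set. Of 9 members tested, 7 rose and TIMP3 fell, at a background of 49.6% of 15387 genes called, so a call is common in this comparison. MMP3 and MMP13 passed the filter on low counts only through the 1q-loss libraries, where they were high, so their calls are not counted as support. Of the 6 members that passed it in both groups, MMP1, MMP2, MMP9, MMP14 and TIMP1 rose and TIMP3 fell. For 4 of the rises every 1q-loss library lay above every WT library and for TIMP3 every one lay below, where 47.5% of genes separate in either direction.

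The 2 collagenases of the set, MMP1 and MMP13, rose in A2058 1q-loss. MMP1 stood at 448, 883, 715 and 370 CPM in WT replicates 1 to 4 and at 1281, 1293, 1323 and 1671 in 1q-loss (clone 1, then clone 2). The means were 604 ± 238 and 1392 ± 187 (SD, n = 4 each), and the difference was 1.20 (log2, SE 0.24, edgeR adjusted p = 0.00190). WT libraries varied more than 1q-loss libraries, and no library of 1q-loss overlapped WT. MMP13 went from 3 to 13 counts per library in WT to 45 to 226 in 1q-loss, or 0.265 ± 0.226 to 4.84 ± 2.89 CPM (4.18 log2, SE 0.58, edgeR adjusted p = 0.000176, and 1.82e-07 with no filter on low counts).

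The stromelysins differed in A2058. MMP3 went from 0 to 4 counts per library in WT to 41 to 101 in 1q-loss, or 0.118 ± 0.0943 to 3.04 ± 0.780 CPM (4.67 log2, SE 0.48, edgeR adjusted p = 2.25e-05, and 2.30e-08 with no filter on low counts). MMP10, its closest relative, stood at 0.367 ± 0.329 CPM in WT and 0.701 ± 0.266 in 1q-loss, with overlapping libraries and no call (0.89 log2, SE 0.64, edgeR adjusted p = 0.274). MMP3 at 1.96 to 3.81 CPM in A2058 1q-loss lay far below its level in A2780 1q-loss, and MMP10 far below its level in all A2780 libraries.

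The gelatinases and the membrane-bound MMP14 were also higher in A2058 1q-loss. MMP14 stood at 543, 660, 759 and 617 CPM in WT and 1187, 1186, 1321 and 1468 in 1q-loss, a difference of 1.00 (log2, SE 0.11, edgeR adjusted p = 2.90e-05). MMP2, the proenzyme that MMP14 activates, stood at 104 to 128 CPM in WT, 144 and 170 in clone 1 and 275 and 224 in clone 2 (0.81 log2, SE 0.17, edgeR adjusted p = 0.00280). It was the 1 member of 9 that differed between the 2 clones (edgeR adjusted p = 0.00985), where 4.84% of genes did. No member did without replicate 1 of clone 1 or of clone 2, 3 did with a replicate block or without WT replicate 3, and 2 did without WT replicate 4. MMP9 stood at 3.96, 5.06, 21.7 and 4.02 CPM in WT replicates 1 to 4 and 42.4, 31.3, 22.5 and 19.3 in 1q-loss, so WT replicate 3 overlapped clone 2. Its difference was 1.73 (log2, SE 0.53, edgeR adjusted p = 0.0191). The MMP9 call was lost in 6 of 19 alternatives, without WT replicate 1, 2 or 4, without clone 1, with clones summed and with WT replicates 3 and 4 only, and its adjusted p ranged from 6.64e-05 to 0.165. The size of the MMP9 difference ranged from 1.17 to 2.72 (log2).

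The 2 inhibitors moved in opposite directions in A2058 1q-loss. TIMP1 stood at 96.3, 109, 104 and 111 CPM in WT and 195, 291, 213 and 308 in 1q-loss (1.26 log2, SE 0.14, edgeR adjusted p = 3.68e-05), with replicate 2 above replicate 1 in both clones. TIMP3 stood at 368, 499, 524 and 595 CPM in WT and 234, 305, 233 and 191 in 1q-loss, a fall by 1.05 (log2, SE 0.16, edgeR adjusted p = 0.000340). No library of 1q-loss overlapped WT for either gene. SYN3, which overlaps TIMP3 on the opposite strand, also stood lower, at 0.433 to 1.02 CPM in WT and 0.0932 to 0.151 in 1q-loss.

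**Figure D3:**
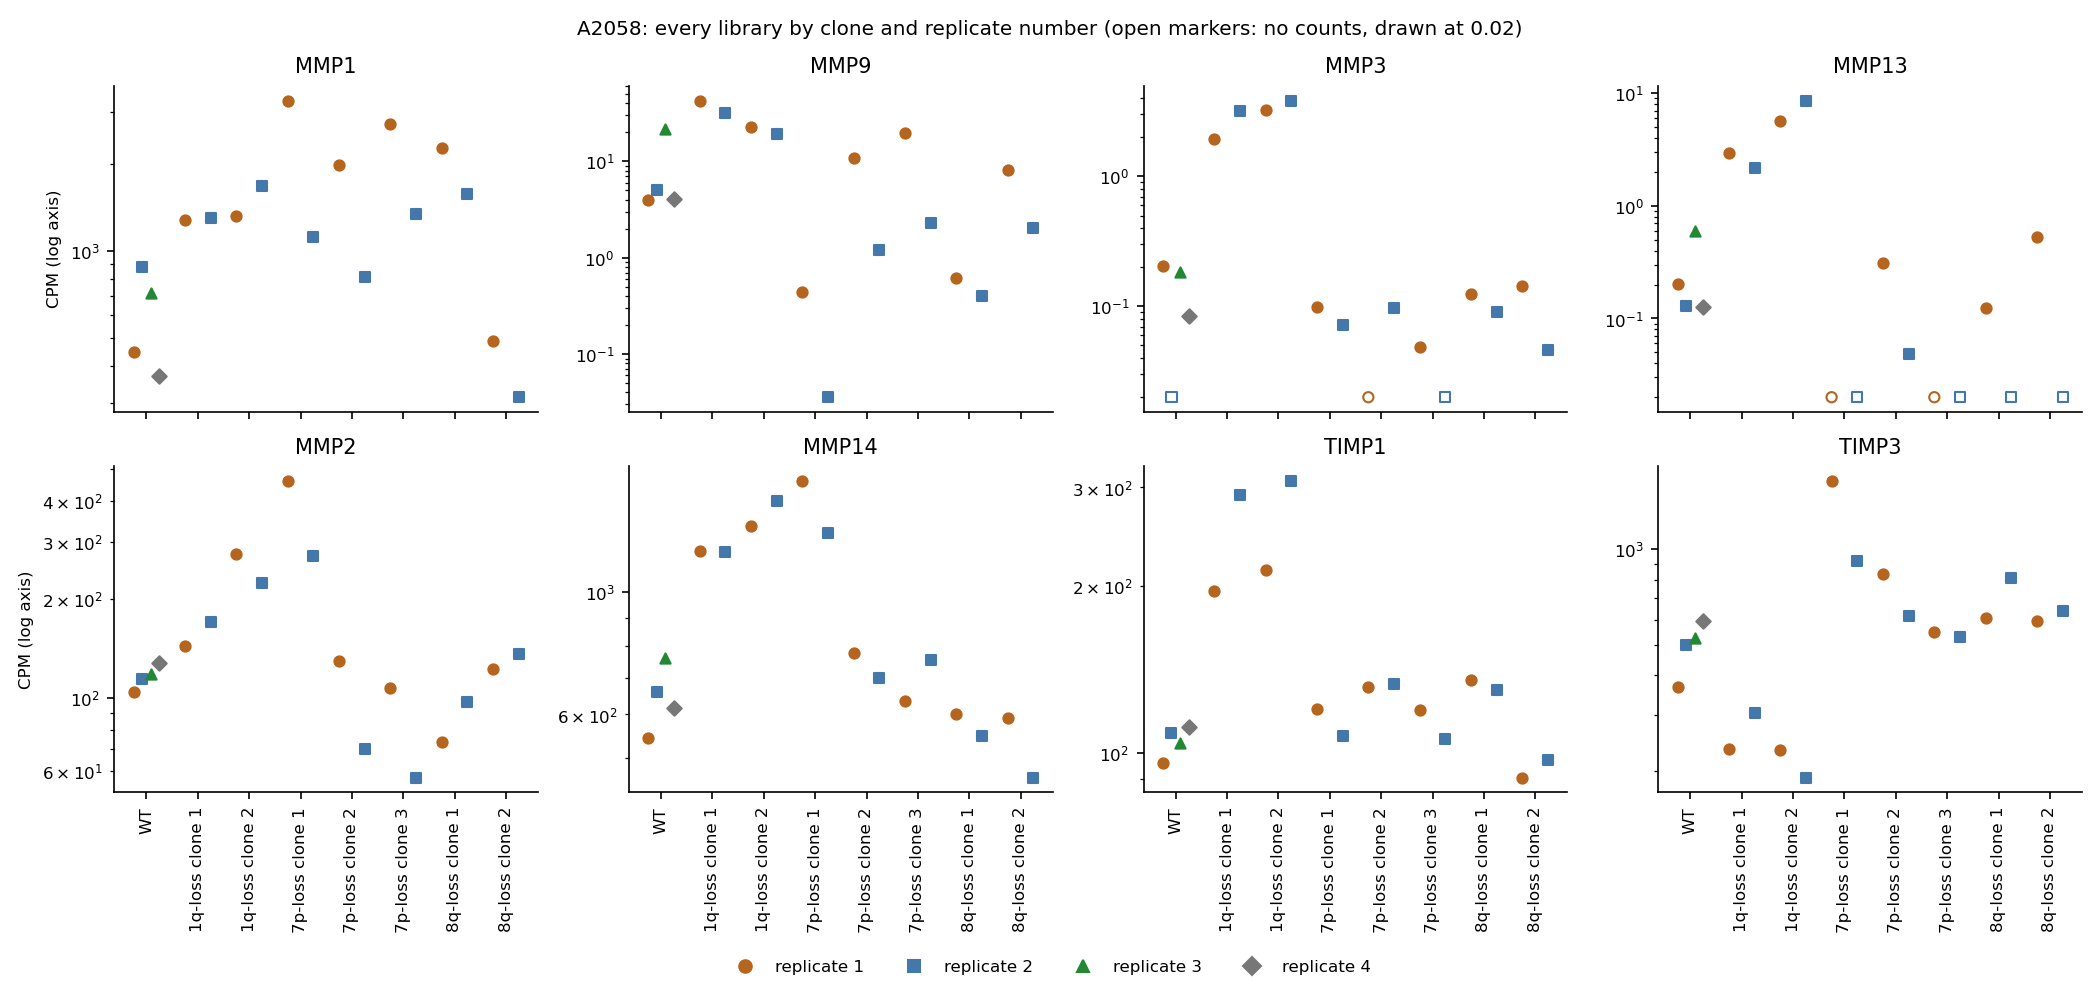
CPM of 8 members in the 18 A2058 libraries (log axes), 1 marker per library with its shape giving the replicate number, for WT and each clone of 1q-loss, 7p-loss and 8q-loss; open markers at 0.02 are libraries with no counts. The 4 libraries of 1q-loss lie above WT for MMP1, MMP14 and TIMP1 and below it for TIMP3, and 7p-loss and 8q-loss overlap WT for every member tested.

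Markers of cell type moved with these values in A2058 1q-loss. The 7 melanocyte markers summed to 2501 to 4413 CPM in WT with all 7 at 1 CPM or more, and to 49.8 to 255 in 1q-loss with 5 of 7. Basal breast markers summed to 0.822 to 2.75 CPM in WT and 51.4 to 267 in 1q-loss, and fibroblast markers to 44.4 to 54.6 and 152 to 275. Of the 6 basal breast markers, 1 reached 1 CPM in WT (KRT17) and 2 in 1q-loss (KRT17 and TP63). Of the 7 fibroblast markers, 4 did in WT and 5 in 1q-loss. PDGFRA and PDGFRB reached 1 CPM only in 1q-loss and DCN only in WT, so the lists did not move as a whole. Their part in the member differences was not tested.

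Genes around the set in A2058 1q-loss did not move one way, and their counts stand beside the 49.6% of all genes called there. Of 7 other MMP genes tested, 1 rose and 3 fell: MMP8, the neutrophil collagenase, fell from 62.2 ± 27.6 to 3.77 ± 2.80 CPM (by 4.08 log2, edgeR adjusted p = 0.000115), the membrane-type genes MMP15 and MMP17 fell by 1.27 and by 1.28, and MMP16 rose by 0.37. TIMP2, of 3 other inhibitor genes tested, fell by 0.69. Of 8 genes of plasminogen activation, 5 rose and 1 fell. PLAT, tissue plasminogen activator, fell by 1.75. AP-1 and ETS genes split 3 up and 3 down of 12, with FOSL2 up by 1.80 and FOS down (fell by 2.15). Of 8 matrix substrate genes, 4 rose and 2 fell, COL1A1 rising by 3.27 and COL3A1 falling from 6.32 ± 1.36 to 1.93 ± 1.14 CPM. The COL3A1 call was lost with a replicate block and with WT replicates 1 and 2 only. Of 9 ADAM and ADAMTS genes, 7 rose, ADAM12 by 2.39, and ADAMTS1 fell by 1.02. None of the 6 genes next to the MMP cluster on 11q22 was called.

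Loss of 7p in A2058 called none of the 7 members tested by edgeR, where 0.908% of 15305 genes were called; 2 members had an unadjusted p under 0.05 and DESeq2 called 1, MMP1. MMP1 stood at 3290 and 1115 CPM in clone 1, 1973 and 815 in clone 2 and 2742 and 1339 in clone 3, against 370 to 883 in WT (1.64 log2, SE 0.42, edgeR adjusted p = 0.121). Only clone 2 replicate 2 overlapped WT, and replicate 1 was 2.05 to 2.95 times replicate 2 in all 3 clones. Without clone 1 the MMP1 difference of 1.51 had an adjusted p of 0.0403. The replicates of a clone also parted for MMP9, 8.45 to 12.5 times higher in replicate 1, and MMP2, 1.69 to 1.88 times higher.

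Clone 1 of 7p-loss stood apart from clones 2 and 3. MMP2 averaged 366 CPM there against 100.1 in clone 2 and 82.3 in clone 3, MMP14 averaged 1438 against 737 and 693, and TIMP3 averaged 1277 against 727 and 539. The test between clones called these 3 genes (edgeR adjusted p = 0.000731, 0.000708 and 0.00996) and MMP10 (0.0397), 4 of 7 members where 34.6% of genes differed, and 2 members without clone 1 replicate 1. MMP10 had no counts in clone 1, at least 2.48-fold lower than the WT mean of 0.367 CPM with 3 counts per library as the floor. WT replicate 1 also had no counts of MMP10 and the other WT libraries had 4 to 16. MMP9 averaged 0.240 CPM in clone 1, 6.08 in clone 2 and 10.9 in clone 3. TIMP1 was even over clones, at 106 to 133 CPM in all 6 libraries against 96.3 to 111 in WT. Of the lists around the set, 1 gene was called, COL3A1, which fell by 5.50 (edgeR adjusted p = 0.000669, and 0.000125 with no filter on low counts). It passed the filter only through WT, where it was high, and its call was lost with a replicate block. The fibroblast markers, COL3A1 among them, summed to 44.4 to 54.6 CPM in WT (4 of 7 at 1 CPM or more) and 8.82 to 39.4 in 7p-loss (2 of 7). The melanocyte markers summed to 2501 to 4413 and 1201 to 4941 (7 of 7 in both). Their part in the member values was not tested.

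Loss of 8q in A2058 called none of 7 members by edgeR, where 2.03% of 15141 genes were called; 1 member had an unadjusted p under 0.05 and DESeq2 called 0. The clones went apart for MMP1, at 2263 and 1566 CPM in clone 1 and 490 and 313 in clone 2, the first above all WT libraries and the second within or below them. TIMP1 did the same on a small scale, with 136 and 130 CPM in clone 1 and 90.5 and 97.1 in clone 2. These were the 2 of 7 members called as differing between clones (edgeR adjusted p = 0.0160 for MMP1 and 0.0302 for TIMP1), where 3.29% of genes did. No member was called without clone 1 replicate 1 or without replicate 1 or 2 of clone 2, and 1 member was without WT replicate 2. MMP9 stood at 0.623 and 0.404 CPM in clone 1 and 8.05 and 2.04 in clone 2. TIMP3 averaged 662 ± 100.3 CPM against 496 ± 94.9 in WT (0.41 log2, SE 0.15, edgeR adjusted p = 0.255). Without clone 2, MMP1 (1.66, adjusted p = 0.0175) and MMP9 (−4.06, adjusted p = 0.0407) were called by edgeR. MMP9 had passed the filter on low counts only through WT, where it was high, so nothing is read from its call. Around the set, COL3A1 fell by 4.84 (edgeR adjusted p = 5.12e-07 with no filter), although it too passed the filter only through WT, and SPARC, a matrix protein that binds collagen, rose by 0.47, a call lost in 12 of 19 alternatives. PLAU, the urokinase gene, named after its values were seen, averaged 1.05 CPM in WT and 0.111 in 8q-loss. It passed the filter only through WT, so nothing is read from its call.

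HCT116 cells expressed TIMP1 and MMP14 and little else of the set. By edgeR, loss of 8q called 0 of 5 members, where 0.140% of 15659 genes were called; 0 had an unadjusted p under 0.05 and DESeq2 called 0. TIMP1 stood at 424 and 231 CPM in WT, 253 and 247 in clone 1 and 179 and 152 in clone 2. The 2 WT libraries lay further apart than the clones did (−0.66 log2, SE 0.31, edgeR adjusted p = 0.940). MMP14 stood at 37.8 and 29.4 CPM in WT and 31.0 to 44.6 in 8q-loss. No member differed between the clones, where 4.66% of genes did.

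AGS cells expressed TIMP1 and MMP14 at high levels, and loss of 1q called 1 of 3 members, MMP1, lower, where 7.55% of 14988 genes were called and 4.17% were called lower. MMP1 passed the filter on low counts only through the controls, where it was high, so nothing is read from this count. With no filter its edgeR adjusted p was 0.00407. MMP1 stood at 1.94 CPM in WT, 8.07 and 0.71 in TK+ clones 1 and 2, and 0.121, 0.228, 0.651, 0.330 and 0.266 in 1q-loss clones 1, 4, 6, 7 and 11. The counts were 37, 125 and 12 in the controls and 2 to 11 in 1q-loss, and TK+ clone 2 lay just above the highest 1q-loss clone. The difference was −3.44 (log2, SE 0.75, edgeR adjusted p = 0.0291). It lost its call in 7 of 15 alternatives, without clone 1, 4 or 7, without TK+ clone 1, without WT, without clones 1 and 4 together and with TK+ controls only, and its adjusted p ranged from 0.000188 to 0.118. Its size ranged from −3.93 to −2.03 (log2), the smallest without TK+ clone 1. TK+ clone 1 also held 51 counts of MMP10 (3.29 CPM), against 0 to 5 in the other 7 AGS libraries.

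TIMP1 split the AGS clones without a call. It stood at 216 to 226 CPM in the 3 control libraries, 94.8 and 91.4 in 1q-loss clones 1 and 4, and 248, 224 and 172 in clones 6, 7 and 11 (−0.40 log2, SE 0.32, edgeR adjusted p = 0.465). Clones 1 and 4 were also those in which genes of 11q as a whole shifted upwards, by 0.42 and 0.57 (log2), against 0.039 to 0.063 in the other 3 clones. MMP1, on 11q, was lowest in these 2 clones. Its part in the values was not tested. The gastric markers summed to 4335 to 5918 CPM in the 3 controls and 6805 to 9257 in 1q-loss (5 of 6 at 1 CPM or more in each group), the basal breast markers to 224 to 430 and 445 to 789, and the immune list, in which LYZ alone reached 1 CPM, to 83.4 to 1944 and 21.0 to 120.3. Their part in the member values was not tested. MMP14 stood at 405 to 488 CPM in controls and 328 to 639 in 1q-loss (0.089 log2, edgeR adjusted p = 0.818). Around the set, MMP20, known for its role in enamel, rose from 0.131 ± 0.0736 to 5.46 ± 3.78 CPM (5.27 log2, edgeR adjusted p = 0.0126, and 0.000360 with no filter on low counts). It passed the filter only through 1q-loss, where it was high. PLAT rose by 3.26, COL4A1, a basement membrane collagen, fell by 2.62 and ADAM9 fell by 0.94. The calls of MMP20, PLAT and ADAM9 were each lost without WT, without TK+ clone 2 and with TK+ controls only, those of MMP20 and PLAT also without TK+ clone 1, and that of PLAT without 1q-loss clone 6 or 7.

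MMP14 in MCF10A came closest to a call when 1q was lost. By edgeR, 0 of 6 members were called, where 2.04% of 15666 genes were; 3 members had an unadjusted p under 0.05 and DESeq2 called 1, MMP14. MMP14 stood at 114 and 147 CPM in WT, and the lowest, median and highest of 8 libraries of 1q-loss were 162, 199 and 248. All 8 lay above both WT libraries, as for 5.30% of genes, and the difference was 0.60 (log2, SE 0.15, edgeR adjusted p = 0.0654). It was called in 7 of 21 alternatives, among them a replicate block, clones summed, no filter on low counts and leaving out clone 2 or replicate 1 of clone 2 or clone 3. The gastric and keratin markers summed to 589 to 642 CPM in WT and 684 to 1237 in 1q-loss (3 of 6 at 1 CPM or more in both). The basal breast markers overlapped, at 8660 to 10233 and 7176 to 15443 (6 of 6). Their part in the member values was not tested.

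Other members of MCF10A 1q-loss overlapped WT. MMP9 stood at 2.09 and 1.61 CPM in WT and 1.86 to 7.04 in 1q-loss (median 4.67), with 1.23 log2, SE 0.44 and an edgeR adjusted p of 0.256. TIMP1 stood at 415 and 537 CPM in WT and at 484 to 1169 in 1q-loss (median 733), with 0.65 log2, SE 0.29 and an edgeR adjusted p of 0.391. TIMP3 stood at 106 and 110 CPM in WT, 39.9 to 73.0 in clones 1, 2 and 3 and 180 and 158 in clone 4, so clone 4 lay above WT and the others below. Without clone 4, TIMP3 was called lower (−0.95 log2, edgeR adjusted p = 0.00560). MMP10 stood at 0.0675 and 0.179 CPM in WT and at 1.72 and 1.19 in clone 4, against 0 to 0.924 in the other clones. MMP10, TIMP1 and TIMP3 differed between the clones (edgeR adjusted p = 0.0272, 0.0108 and 4.03e-06), 3 of 6 members where 10% of genes did, and 1 member without replicate 1 or 2 of clone 1. Clone 4 had the highest level of each, and it is the clone made by ReDACT-CO, so the method and the clone cannot be told apart. MMP10 passed the filter on low counts only through the 1q-loss libraries, where it was high, so its call is not counted as support. Of the genes around the set, 1 was called, the matrix gene SPARC, named after its values were seen, which averaged 1.32 CPM in WT and 0.0617 in 1q-loss. It passed the filter on low counts only through WT, where it was high, so nothing is read from its call.

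In cells with hRASV12, by edgeR, 0 of 7 members were called against hRas WT, where 0.214% of 15851 genes were; 2 members had an unadjusted p under 0.05 and DESeq2 called 2, MMP10 and MMP14. Yet all 8 libraries of 1q-loss lay above both hRas WT libraries for MMP10, MMP14 and TIMP1, as for 8.13% of genes, although MMP10 passed the filter on low counts only through 1q-loss. MMP10 stood at 0.323 and 0.370 CPM in hRas WT and at 0.513 to 6.02 in 1q-loss (median 2.16), with 3.05 log2, SE 0.98 and an edgeR adjusted p of 0.246. MMP14 stood at 122 and 119 CPM and at 167 to 280 (median 209), with 0.85 log2, SE 0.22 and an edgeR adjusted p of 0.160. TIMP1 stood at 713 and 771 CPM and at 781 to 2323 (median 1483), with 1.03 log2, SE 0.47 and an edgeR adjusted p of 0.351.

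All 7 members tested differed between the hRas 1q-loss clones, where 64.4% of genes did. MMP1 and MMP10 passed the filter on low counts only through the 1q-loss libraries, where they were high, so their calls are not counted as support. The other 5 passed it in both groups. Clone 2 combined high TIMP1 (2323 and 2124 CPM) with low TIMP3 (7.77 and 8.17), the highest MMP2 (2.88 and 2.62) and no counts of MMP9, at least 37.3-fold lower than the hRas WT mean of 4.44 CPM with 3 counts per library as the floor. Clone 4 had similar TIMP1 (2122 and 1994 CPM) but the highest TIMP3 (97.5 and 96.9), MMP10 (5.65 and 6.02), MMP14 (275 and 280.2) and MMP1 (1.85 and 1.88). Clone 1 had the highest MMP9 (19.1 and 15.1 CPM) with TIMP1 at 881 and 781, and clone 3 was nearest to hRas WT for TIMP3 and MMP9. The basal breast markers summed to 1640 to 11318 CPM over these 8 libraries against 7601 to 8087 in hRas WT, and fibroblast markers to 14.3 to 286 against 25.8 to 27.0. EPCAM, the 1 colorectal marker at 1 CPM or more, led a sum of 3.71 to 146 CPM against 93.8 to 96.0, and HRAS itself ran from 154 to 409 CPM. The part of these genes in the member values was not tested.

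**Figure D4:**
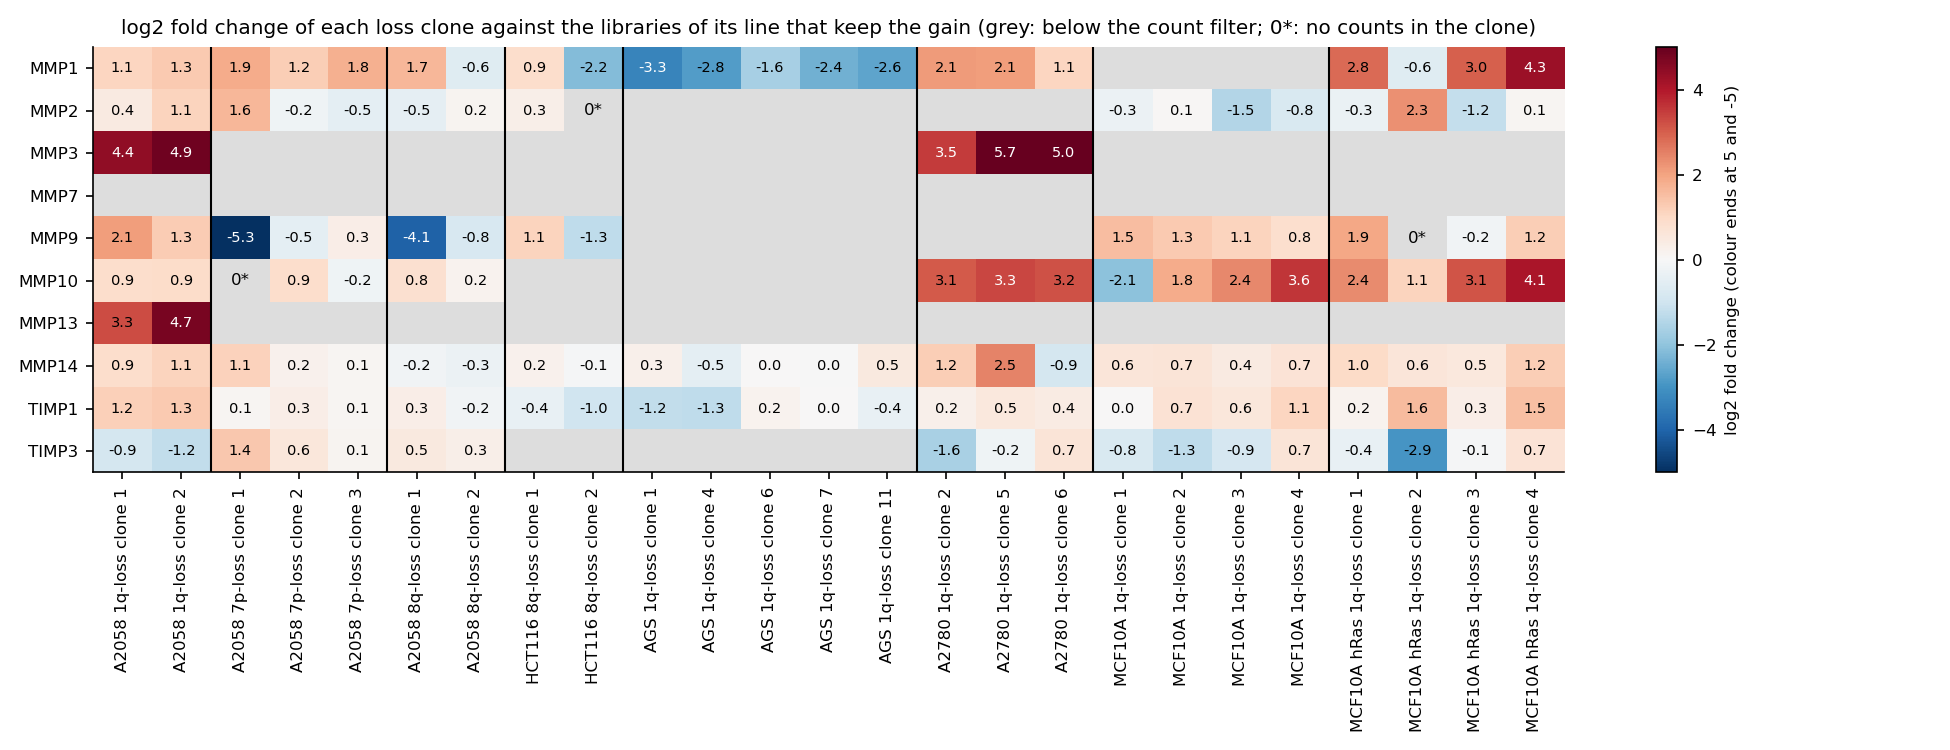
log2 fold change of each loss clone against the libraries of its line that keep the gain, with clones as columns and members as rows (fitted, but for AGS the difference of log2 CPM); grey cells are genes below the filter on low counts, and 0* marks clones with no counts. Rises in all clones are seen for MMP10 and MMP3 in A2780, MMP1 and MMP14 in A2058 1q-loss and MMP14 in both MCF10A sets, while TIMP3 takes both signs in MCF10A.

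In MCF10A that kept the 1q gain, TIMP1 was higher and TIMP3 lower in the cells with hRASV12. Of 5 members tested, 1 rose and 1 fell, where 1.62% of 14646 genes were called. TIMP1 stood at 415 and 537 CPM without and 713 and 771 with hRASV12 (0.64 log2, SE 0.11, edgeR adjusted p = 0.00898). TIMP3 stood at 106 and 110 CPM without and 56.8 and 65.7 with it (−0.81 log2, SE 0.089, edgeR adjusted p = 0.000532). The libraries did not overlap for either gene, nor for MMP9, as for 45.3% of genes. The basal breast markers summed to 8660 to 10233 CPM without and 7601 to 8087 with hRASV12 (6 of 6 at 1 CPM or more) and the fibroblast markers to 13.3 to 19.3 and 25.8 to 27.0 (2 of 7), and their part in these values was not tested. Both calls, of TIMP1 and of TIMP3, were lost without WT replicate 1 or without WT replicate 2, when 1 control library is assumed to vary like the other group, and the adjusted p then reached 0.341 for TIMP1 and 0.324 for TIMP3. MMP9 stood at 2.09 and 1.61 CPM without and 3.92 and 4.96 with it (1.25 log2, SE 0.30, edgeR adjusted p = 0.0628) and was called with no filter on low counts and with a replicate block.

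In the 1q-loss clones, fitted with the clone number as a term, MMP10 and TIMP1 were called higher and TIMP3 lower with hRASV12. These were 3 of 6 members, where 15.1% of 14332 genes were called. MMP10 passed the filter on low counts only through the libraries with hRASV12, where it was high. Its call held with no filter but is not counted as support. Of the 3 members that passed the filter in both groups, TIMP1 rose and TIMP3 fell. The same clone number is taken to name the same clone with and without hRASV12. MMP10 rose by 2.20 (log2, SE 0.42, edgeR adjusted p = 0.00491), and its mean was higher in 4 of 4 clones: 0.0229 against 1.83 CPM in clone 1, 0.444 against 0.752 in clone 2, 0.626 against 3.11 in clone 3 and 1.46 against 5.84 in clone 4. Clone 2 was the one whose libraries overlapped. In WT the same gene went from 6 to 15 counts summed over 2 libraries, too few to be tested. TIMP1 rose by 0.93 (log2, SE 0.13, edgeR adjusted p = 0.000787) and was higher in 4 of 4 clones with no overlap, from 0.44 in clone 3 to 1.51 in clone 2, beside 0.65 in WT. TIMP3 fell by 0.87 (SE 0.24, edgeR adjusted p = 0.0270), with clone differences of −0.42, −2.46, −0.026 and −0.80 in clones 1 to 4 and overlapping libraries in clone 3. Its call was lost without either hRas library of clone 2 and without clone 4. None of the 3 was called without the clone term or with the libraries of each clone summed. In these clones the basal breast markers summed to 7176 to 15443 CPM without and 1640 to 11318 with hRASV12 (6 of 6 at 1 CPM or more). The fibroblast markers summed to 8.08 to 24.7 and 14.3 to 286 (2 of 7), and the colorectal list, with EPCAM alone at 1 CPM, to 59.9 to 166 and 3.71 to 146. Their part in these values was not tested.

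MMP9 differed from clone to clone in its values with hRASV12, and was not called in 1q-loss as a whole. Without clone 2 it was called (1.11 log2, edgeR adjusted p = 0.0383). It was higher with hRASV12 in clone 1 (5.45 against 17.1 CPM) and clone 4 (3.31 against 10.2), overlapped in clone 3 (4.07 against 3.91) and went from 210 counts over 2 libraries to 0 in clone 2. MMP14 stood at 198 ± 28.1 CPM without and 217 ± 45.4 CPM with hRASV12 in 1q-loss (SD, n = 8 each; 0.11 log2, edgeR adjusted p = 0.409). A test of whether the effect of 1q-loss differs with hRASV12 called 0 of 7 members and 0 of 16492 genes by edgeR; 0 members and 366 genes had an unadjusted p under 0.05, and DESeq2 called 0 members and 1 gene.

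**Figure D5:**
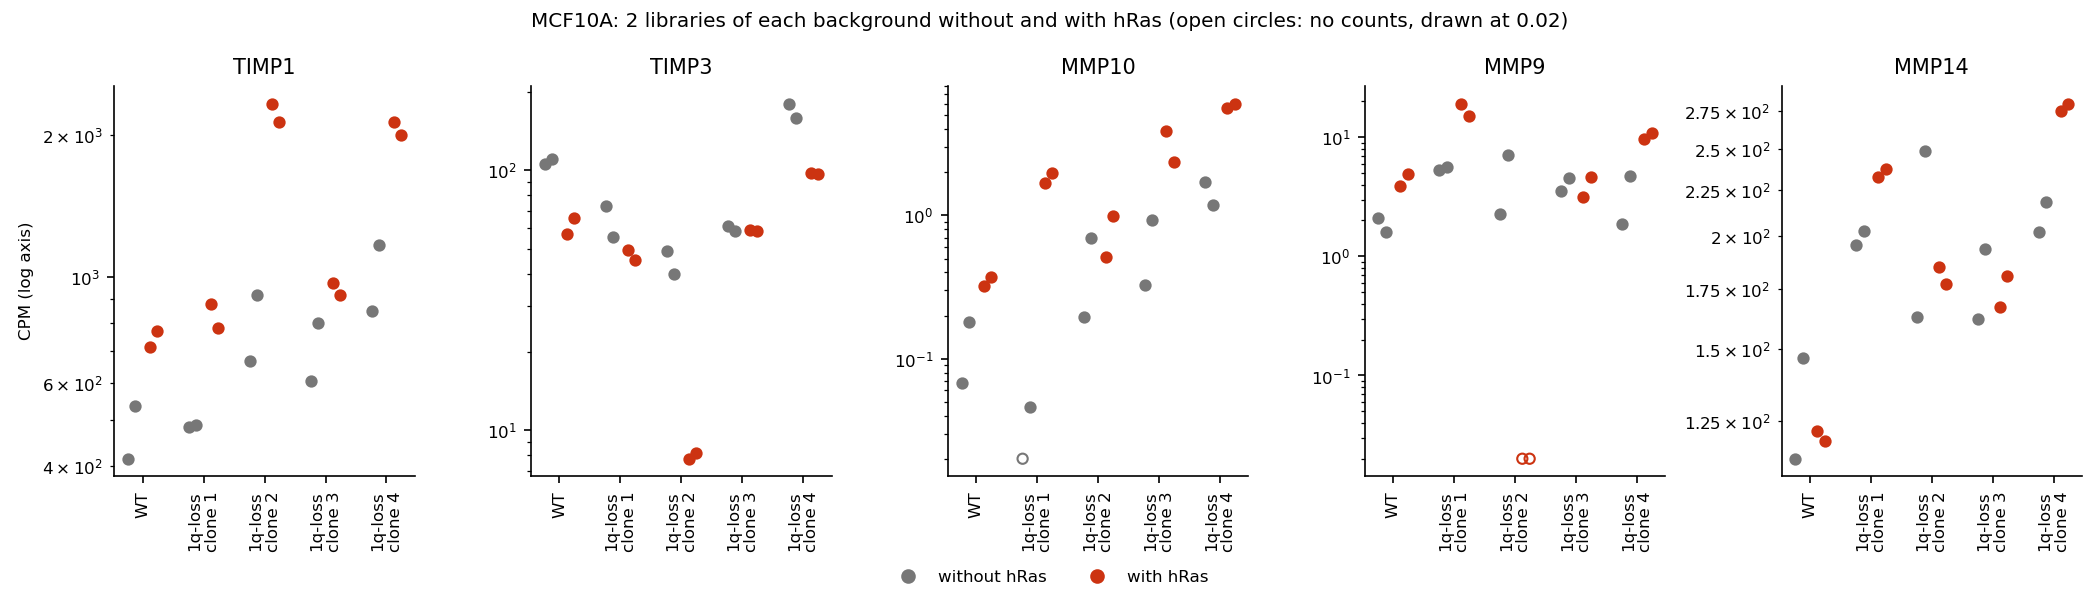
CPM of 5 members in the 20 MCF10A libraries (log axes), 1 point per library, for WT and 1q-loss clones 1 to 4 without (grey) and with hRASV12 (red); open circles at 0.02 are libraries with no counts. TIMP1 is higher with hRASV12 in WT and in all 4 clones, and MMP9 has no counts in clone 2 with hRASV12.

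Among the surrounding genes, TIMP2 was higher with hRASV12 by 0.69 in WT and by 0.90 in 1q-loss (log2). SERPINE2, a secreted serine protease inhibitor, was higher by 0.93 and by 1.89. In WT, FOSL1 rose by 0.47, SERPINB2 fell by 1.47, FOSL2 fell by 0.38 and the fibronectin gene FN1 fell by 1.00, and all of these WT calls were lost without WT replicate 1 and without WT replicate 2. Those of FOSL1, FOSL2, SERPINB2 and FN1 were also lost without hRas WT replicate 1, and that of FOSL2 without hRas WT replicate 2. FN1 was not called by DESeq2 or with a minimum mean of 1 CPM either, and its difference ranged from −1.44 to −0.36. In 1q-loss, where 15.1% of all genes tested were called, 5 of 8 genes of plasminogen activation, 5 of 12 AP-1 and ETS genes and 3 of 8 ADAM genes rose and 1 AP-1 gene, JUND, fell by 0.25. Both other inhibitors tested rose there, RECK, a membrane-anchored MMP inhibitor, by 0.73, and 2 of 6 other MMP genes did, MMP16 by 1.14 and MMP19 by 1.34. FOSB rose by 0.57 and ADAM12 by 1.36. RECK, MMP19, ADAM12, FOSB and JUND lost their calls without clone 2 and without clone 4, and RECK and JUND also without clone 3. With the libraries of each clone summed, none of these 1q-loss genes was called, and without the clone term SERPINE2 alone among them was (edgeR adjusted p = 0.0146, against 0.0534 to 0.287 for the other 7).

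Among the genes most like MMP10 over all 62 libraries, after each line was centred on its own mean, were ACADVL (Pearson r = 0.69), PARP3 (0.64), HM13 (0.63) and MIB2 (0.62) of 14333 genes compared. MMP1 came sixth with r = 0.62. The genes most like MMP1 were MMP10 (0.62), P4HA1 (0.59), TUBB6 (0.55), REEP3 (0.55) and HTR7 (0.54). Libraries of a clone and of a line share their source, so these values describe the set of libraries and carry no test. The A2780 libraries, whose MMP10 rise was known when the set was put together, are among the 62. The values that involve MMP10 therefore restate that choice in part. Within lines, r between MMP10 and MMP1 was 0.90 in A2780, 0.81 in AGS, 0.77 in MCF10A, 0.46 in HCT116 and −0.0036 in A2058. In AGS, TK+ clone 1 had the most counts of both genes, 51 of MMP10 and 125 of MMP1. Counts were also few in HCT116, with at most 16 of MMP10 in a library, and in MCF10A, with at most 50 of MMP1.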

How the data were processed

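RNA from 62 libraries of 5 human cell lines was sequenced after poly-T selection. The authors deposited raw read counts per gene. Alignment with HISAT2 2.0.5, counting with featureCounts 1.5.0-p3 and genome build hg38 are named per the submitters' processing notes, while the A2780 tables carry GRCh37 coordinates per the file headers.

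Groups came from the labels, and each line was normalised and fitted separately. Genes were kept with filterByExpr (minimum count 10, minimum total 15), scaled by TMM and tested with edgeR 4.0.16 (quasi-likelihood, Benjamini-Hochberg over all genes tested, threshold 0.05), in R 4.3.3 with limma 3.58.1; the SE printed is the size of a log2 difference over the root of its F statistic. AGS and A2780 1q-loss were set against WT and TK+ together. Clone differences were tested with each clone as a level. CPM per library uses TMM over the libraries of a line. DESeq2 1.42.0 and other filters, scalings, control sets and left-out libraries were alternatives. Tests were tried on simulated counts. Tables and figures used Python 3.11.15, numpy 2.4.6, pandas 2.3.3 and matplotlib 3.10.9.

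Members and lists were chosen with earlier results of these data known. The genes named follow a rule: all 10 members in every comparison; from each list, the called gene with the largest rise and fall (mean CPM of at least 1) and each further MMP or TIMP gene called; and the 5 genes most correlated with MMP10 and MMP1. Some genes that the rule names are not reported here. For A2780 1q-loss and TK+, calls serve as background only.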

Additional observations from a re-analysis of the deposited data

Results flagged for a closer look

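Groups of 4 to 10 libraries were searched for a member whose highest or lowest library lies far from the rest. 45 sets of values were tested, and chance flags about 1 in 20. MMP9 in A2058 WT was 21.7 CPM in replicate 3, with the next library at 5.06. MMP1 in A2058 1q-loss was 1671 CPM in clone 2 replicate 2, with the next at 1323. TIMP3 in A2058 7p-loss was 1637 CPM in clone 1 replicate 1, with the next at 917. MMP14 in HCT116 8q-loss was 44.6 CPM in clone 1 replicate 1, with the next at 32.7.

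MMP1 lay on opposite sides of the controls with loss of 1q in 2 lines. It was higher in every A2058 1q-loss library than in WT, by 1.20 (log2), and lower in every AGS 1q-loss library than in the libraries that keep the gain, with a difference of −3.44 (log2). In AGS it passed the filter on low counts only through the controls, and its call was lost in 7 of 15 alternatives. Without TK+ clone 1 the AGS difference was −2.03 (log2, edgeR adjusted p = 0.118). The difference between the lines was not tested.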

How the results depend on the processing

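With libraries or clones left out in turn, A2058 1q-loss kept 7 to 8 members called and 6601 to 7338 genes (8 and 7638 with all). A2058 7p-loss gave 0 to 1 members and 71 to 898 genes (0 and 139), and 8q-loss 0 to 2 and 119 to 783 (0 and 308). HCT116 gave 0 members and 0 to 117 genes (22), and AGS 0 to 1 members and 97 to 1773 genes (1 and 1131). In A2780 the median member difference was 1.11 to 2.05 (log2) with 983 to 1800 genes for 1q-loss, and −0.022 to 0.18 with 1094 to 3278 for TK+. MCF10A 1q-loss gave 0 to 1 members and 16 to 452 genes (0 and 319), and hRas 1q-loss 0 members and 0 to 60 genes (34). hRASV12 in WT gave 0 to 2 members and 0 to 173 genes (2 and 237), and in 1q-loss 2 to 5 and 554 to 3127 (3 and 2160), the 5 without clone 2. Members differing between clones numbered 0 to 3 in A2058 1q-loss, 2 to 5 in 7p-loss, 0 to 3 in 8q-loss, 0 to 1 in HCT116, 1 to 3 in MCF10A and 7 to 7 with hRASV12. Few counts limit MMP1 in AGS 1q-loss (2 to 11 per library) and MMP10 in MCF10A WT (6 over 2 libraries). The cause of these changes was not tested, beyond fewer samples.

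DESeq2 called 1 member and 448 genes in A2058 7p-loss, 666 genes in 8q-loss, 116 in HCT116, 2126 in AGS, 1 member and 546 genes in MCF10A 1q-loss, 2 and 361 in hRas 1q-loss and 1 gene in the interaction, and gave a TK+ median of 0.22. With no filter on low counts, 487 genes were called in 8q-loss, 133 in HCT116, 1 member in MCF10A 1q-loss, 13 genes in hRas 1q-loss and 633 for hRASV12 in WT, the TK+ median was 0.22, and 4, 7 and 4 members differed between A2058 clones of 1q-loss, 7p-loss and 8q-loss. A minimum mean of 1 CPM gave a TK+ median of 0.28. Summing the libraries of a clone gave 55 genes in 7p-loss, 725 in A2780, 1 member in MCF10A 1q-loss, 0 genes in hRas 1q-loss and 0 members and 4 genes for hRASV12 in 1q-loss, where no clone term gave 0 and 172. WT replicates 1 and 2 only gave 16 genes in 7p-loss and 79 in 8q-loss, and replicates 3 and 4 only gave 47 and 16. TK+ controls only gave 0 members and 167 genes in AGS and 667 genes in A2780, and AGS without clones 1 and 4 gave 0 members.

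Correlations of the deviations of same-numbered libraries ran from −0.18 to 0.49. In no comparison with 3 or more pairs did each exceed 0.1 (A2780 TK+, with 2 pairs, gave 0.15), so the numbers were not taken to pair libraries. With a replicate block, A2058 1q-loss kept 8 members with 6315 genes, 7p-loss had 1 gene, 8q-loss 39 and HCT116 8. MCF10A 1q-loss had 1 member and 338 genes, hRas 1q-loss 2 genes, hRASV12 in WT 3 members and 711 genes, and hRASV12 in 1q-loss 3 members and 1978 genes. The A2780 medians were 1.67 and 0.072 with 1550 and 2288 genes, and 3, 5 and 4 members differed between A2058 clones of 1q-loss, 7p-loss and 8q-loss. For the 14 single-member results called by edgeR, 240 alternatives kept the call and 26 lost it. For the 48 not called, 17 alternatives gave a call and 39 moved the value.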
